A study of Homo sapiens with 6 samples.

Results

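The mitochondrial ribosomal RNAs are 2 of the 60554 gene IDs in the count files, picked by Ensembl ID: MT-RNR1 (ENSG00000211459.2), the 12S RNA, and MT-RNR2 (ENSG00000210082.2), the 16S RNA. Both were found once in each of the 6 libraries. The libraries came from HCT116, a human colorectal carcinoma cell line, and from the gradient fraction of free small (40S) ribosomal subunits. RNA recovered with an antibody to LARP1 (LARP1 IP, 2 libraries) was compared with RNA recovered with control IgG from normal rabbit serum (IgG IP, 2 libraries), the background measure, and with RNA of the fraction before any selection (Input, 2 libraries). No treatment or genetic change is given for any group, and the labels call the 2 libraries of a group biological replicates without describing how they were grown, so p-values reflect only how much these libraries vary. LARP1, an RNA-binding protein, is best known as a regulator of mRNAs with a terminal oligopyrimidine motif at the 5′ end.

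Mitochondria carry their own ribosomes, which make the membrane proteins encoded by mitochondrial DNA. The 12S RNA is the core of the small mitochondrial subunit and holds its decoding site, and the 16S RNA is the core of the large subunit and forms the peptidyl transferase centre. Both are cut from a common precursor transcribed from the heavy strand, in which tRNAs stand between the longer genes and mark the cutting sites. The proteins of these ribosomes are encoded in the nucleus and imported. LARP1 is known as a protein of the cytosol.

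In the RefSeq annotation of GRCh38.p14, MT-RNR1 covers positions 648 to 1601 of the mitochondrial chromosome (954 bases) and MT-RNR2 covers positions 1671 to 3229 (1559 bases). The annotation lists both as rRNA genes, with no coding sequence. The 69 bases between them, from 1602 to 1670, are the gene TRNV for the valine tRNA. TRNF for the phenylalanine tRNA ends just before MT-RNR1 at 647, and TRNL1 for a leucine tRNA starts just after MT-RNR2 at 3230. They are the 2 rRNA genes among the 37 genes of that chromosome, beside 13 protein-coding and 22 tRNA genes. The same annotation lists 13 nuclear genes of the MTRNR2L group, which are copies of 16S sequence. How the authors' counting assigned reads that match both MT-RNR2 and such a copy is not given in the sources used here, so part of the 16S count may be shared with them.

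The files held 4135463 to 8069554 counts per library, spread over 15798 to 18016 genes with a count, and poly(A) selection was omitted, which also admits RNA that has no poly(A) tail. The files give no symbols, and 0 rows of the gene table used here carry an Ensembl ID. The HCT116 identity could therefore not be checked on epithelial markers, and the lists of mitochondrial mRNAs, tRNAs, mitochondrial ribosomal proteins, assembly factors and other noncoding RNAs were not applied.

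Mitochondrial rRNA dominated the gene counts of Input and the IgG IP and took a far smaller share of those of the LARP1 IP. These are shares of reads counted to genes, not of all RNA in the fraction. Whether cytosolic rRNA is among the counted genes was not checked. Together the 12S and 16S RNAs took 26.6% and 21.3% of the counts in the 2 LARP1 IP libraries, 70.9% and 71.5% in the IgG IP libraries, and 88.6% and 87.9% in the Input libraries. No library of one group reached the range of another. The counts left for all other genes ranged from 752862 in an Input library to 3823470 in a LARP1 IP library.

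**Figure D1:**
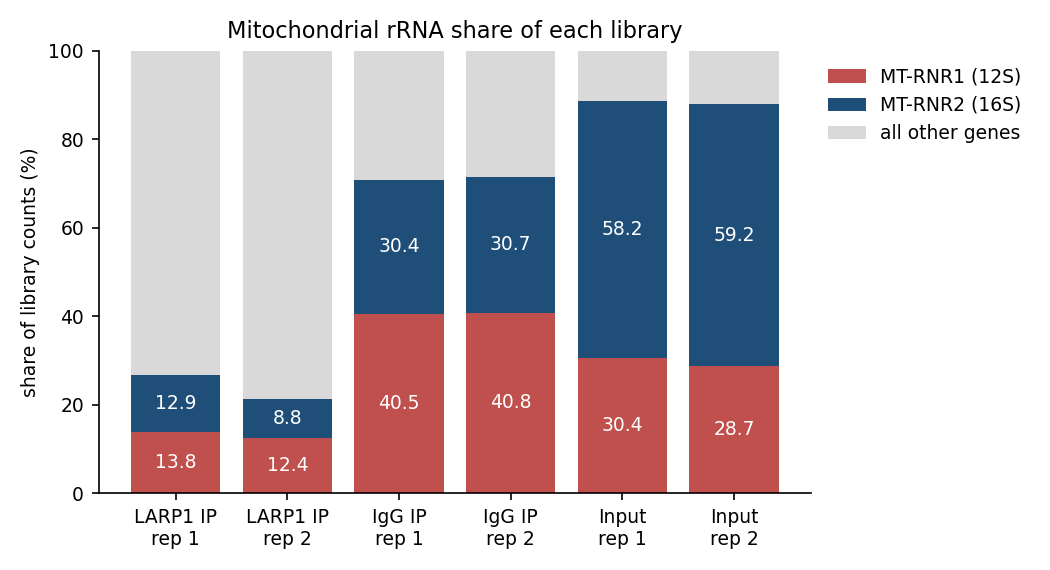
Share of library counts (%) taken by MT-RNR1 (red), MT-RNR2 (blue) and all other genes (grey) in each of the 6 libraries, with the value of each rRNA printed in its bar. Both rRNAs are lowest in the LARP1 IP, where together they hold 26.6% and 21.3%, against 70.9% and 71.5% for the IgG IP and 88.6% and 87.9% for Input.

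The 12S RNA, MT-RNR1, had 717604 and 514367 counts in the LARP1 IP libraries, 2976361 and 3293823 in the IgG IP libraries, and 2019042 and 1842952 in Input. As a share of the library it stood at 13.8% and 12.4% in the LARP1 IP libraries, 40.5% and 40.8% in the IgG IP libraries, and 30.4% and 28.7% in Input. The means were 13.1% ± 0.94, 40.6% ± 0.25 and 29.6% ± 1.24 in that order of groups (SD, n = 2 each). The 12S share was thus lowest in the LARP1 IP and highest in the IgG IP, with no overlap between any groups.

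The 16S RNA, MT-RNR2, had 670735 and 365084 counts in the LARP1 IP libraries, 2235726 and 2475854 in the IgG IP libraries, and 3861048 and 3803023 in Input. Its share was 12.9% and 8.83% in the LARP1 IP libraries, 30.4% and 30.7% in the IgG IP libraries, and 58.2% and 59.2% in Input, with means of 10.8% ± 2.86, 30.5% ± 0.20 and 58.7% ± 0.70 (SD, n = 2 each). Here Input was highest and the IgG IP lay in between, again without overlap. Exact (Clopper-Pearson) 95% binomial intervals of single-library shares were narrow at this depth, for example 12.8% to 12.9% for the 16S share in LARP1 IP replicate 1 and 8.80% to 8.86% in replicate 2. They cover counting error only, since PCR copies are not independent molecules, and the gap between those replicates was many times larger.

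A share of counts does not say how much RNA was recovered: less rRNA and more of other RNAs cannot be told apart without an external standard. Set against the counts of all other genes in the same library, the 2 rRNAs together gave 0.363 and 0.270 counts per other count in the LARP1 IP libraries, 2.43 and 2.51 in the IgG IP libraries, and 7.81 and 7.25 in Input. The mean of this quotient was 7.80-fold lower in the LARP1 IP than in the IgG IP and 23.8-fold lower than in Input, and it was 3.05-fold lower in the IgG IP than in Input. For each of these comparisons of shares and quotients the exact two-sided permutation p was 0.33, the lowest value that groups of 2 libraries allow.

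By raw count the 2 rRNAs held ranks 1 and 2 in all 6 libraries. MT-RNR1 was first in the 4 IP libraries and MT-RNR2 was first in both Input libraries. The gene at rank 3 took 1.72% and 2.15% of the LARP1 IP libraries, 1.81% and 4.85% of the IgG IP libraries, and 0.738% and 0.658% of the Input libraries. The rRNA at rank 2 therefore exceeded rank 3 by 7.48-fold and 4.11-fold in the LARP1 IP, by 16.8-fold and 6.32-fold in the IgG IP, and by 41.2-fold and 43.6-fold in Input. In the LARP1 IP the next 29 genes (replicate 1) or 15 genes (replicate 2) were needed to match the counts of the rRNA pair. In the IgG IP and Input libraries all other genes together did not reach it. Ranks by raw count favour long genes.

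**Figure D2:**
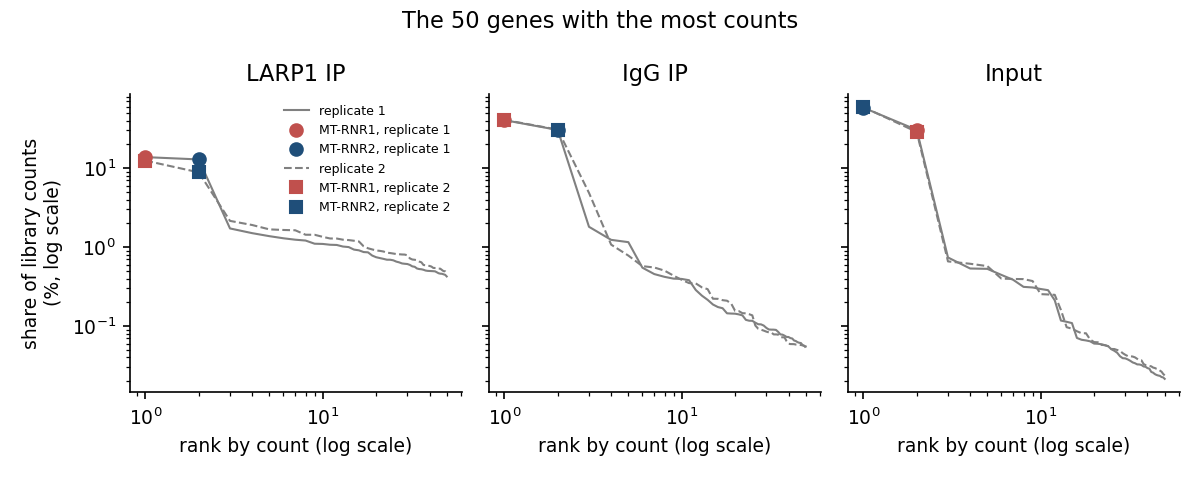
Share of library counts (%, log scale) of the 50 genes with the most counts in each library, by rank (log scale), with one line per replicate and the 2 rRNAs marked. The rRNAs hold ranks 1 and 2 in every library, and the drop to rank 3 is smallest in the LARP1 IP, at 7.48-fold and 4.11-fold.

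The balance between the 12S and 16S RNAs, which needs no scaling between libraries, also differed. The ratio of 16S to 12S counts was 0.935 and 0.710 in the LARP1 IP libraries, 0.751 and 0.752 in the IgG IP libraries, and 1.91 and 2.06 in Input. The 2 IgG IP libraries were almost identical and lay inside the range of the LARP1 IP libraries. Divided by gene length, since the 16S gene is 1.63 times as long, the 16S RNA had 0.572 and 0.434 counts per base for each 12S count per base in the LARP1 IP libraries, 0.460 and 0.460 in the IgG IP libraries, and 1.17 and 1.26 in Input. Per base, the 16S RNA was thus the more abundant of the pair in Input and the less abundant in every IP library.

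On the log2 scale the count ratio averaged -0.30 ± 0.28 for the LARP1 IP, -0.41 ± 0.0007 for the IgG IP and 0.99 ± 0.08 for Input (SD, n = 2 each). The LARP1 IP differed from Input by -1.29 and the IgG IP differed from Input by -1.40, far beyond the spread within groups, with an exact two-sided permutation p of 0.33, again the lowest possible. Between the LARP1 IP and the IgG IP the difference was 0.12, smaller than the SD of the LARP1 IP libraries, with overlapping groups (exact permutation p = 1). With 2 libraries per group, that does not show the ratios to be alike. The share of 12S counts in the sum of both was 51.7% and 58.5% in the LARP1 IP libraries, 57.1% and 57.1% in the IgG IP libraries, and 34.3% and 32.6% in Input.

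**Figure D3:**
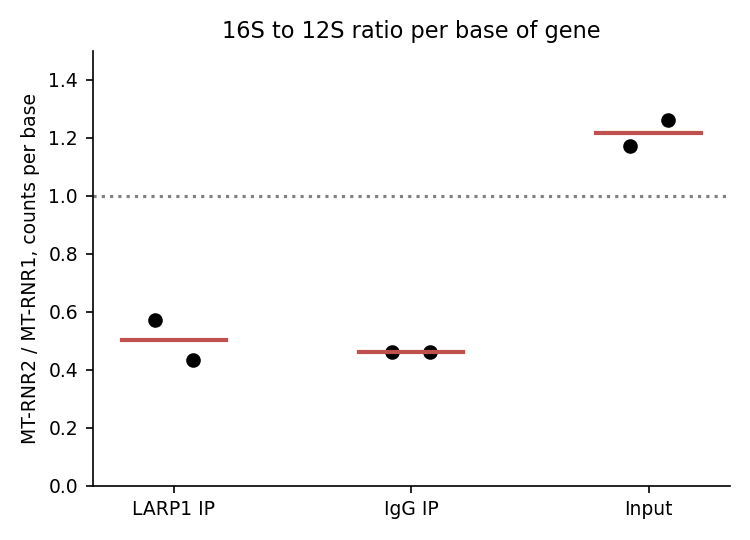
Ratio of MT-RNR2 to MT-RNR1 counts per base of gene in each library (points) with the group mean (red line), and a dotted line at equal counts per base. The Input libraries lie at 1.17 and 1.26 and the 4 IP libraries between 0.434 and 0.572.

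The first comparison asked what the LARP1 antibody recovers beyond the control IgG. Both rRNAs fell in the LARP1 IP relative to the bulk of genes. MT-RNR1 fell by 1.82 on the log2 scale (SE 0.41), a 3.52-fold difference, and MT-RNR2 fell by 1.71 (SE 0.40), a 3.27-fold difference (edgeR quasi-likelihood test with TMM scaling over 10788 tested genes, Benjamini-Hochberg adjusted p = 0.0119 and 0.0149). At the same threshold, an adjusted p under 0.05, 2.29% of tested genes were called lower. By fold, 228 tested genes fell further than MT-RNR1 and 298 further than MT-RNR2, so the pair was among the lower genes but not at the extreme. Their library shares were lower without overlap, as were those of 16.9% of tested genes. At the median, a tested gene's share in the LARP1 IP was 1.10-fold that in the IgG IP. The 100 most abundant genes after the rRNAs had a median log2 fold change of 3.92. Of these, 3 fell further than MT-RNR1 and 5 further than MT-RNR2. Abundance was averaged over all 6 libraries, so genes high in the LARP1 IP entered that group more easily.

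These calls by edgeR depended on the Input libraries, which are not compared here but enter the fit and its shared estimate of spread. Without Input replicate 1 the adjusted p was 0.0555 for MT-RNR1 and 0.0712 for MT-RNR2, without Input replicate 2 it was 0.0913 and 0.110, and in a fit of the 4 libraries compared it was 0.157 and 0.166, with log2 fold changes between -1.66 and -1.82 in these fits. DESeq2, which called 2.3% of genes lower over all libraries, called both without either Input library (adjusted p between 0.000366 and 0.000854). Scaling to the counts outside the 2 rRNAs made the log2 fold changes -3.03 and -2.88. It also shifted the median log2 fold change of all genes to -1.24 (-0.06 with TMM), with 3992 of 10788 tested genes called lower.

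Against Input, MT-RNR2 had one of the steepest falls of any gene in the LARP1 IP. It fell by 4.16 on the log2 scale (SE 0.44), a 17.9-fold difference, and MT-RNR1 fell by 2.87 (SE 0.42), a 7.31-fold difference (edgeR adjusted p = 0.000935 and 0.00123). Called lower in this comparison were 1.52% of tested genes. Of the 10788 genes, 4 fell further than MT-RNR2 and 59 further than MT-RNR1. Their shares of the library were lower without overlap, which held for 0.955% of tested genes, while 79.6% of tested genes had a higher share in both LARP1 IP libraries.

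The size of these falls depended on the scaling. Total counts shifted the median log2 fold change of all genes to 1.75 (0.03 with TMM) and put MT-RNR2 at -2.44 and MT-RNR1 at -1.17. Counts outside the 2 rRNAs (median -0.92) put them at -5.12 and -3.87. By edgeR both calls were lost without Input replicate 1 (log2 fold changes -4.07 for MT-RNR2 and -2.73 for MT-RNR1, adjusted p = 0.0648 and 0.0683) or without Input replicate 2 (-4.22 and -2.98, adjusted p = 0.0817 and 0.0877), where DESeq2 called both. Over all 6 libraries DESeq2 called 1.71% of tested genes lower, both rRNAs among them.

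**Figure D4:**
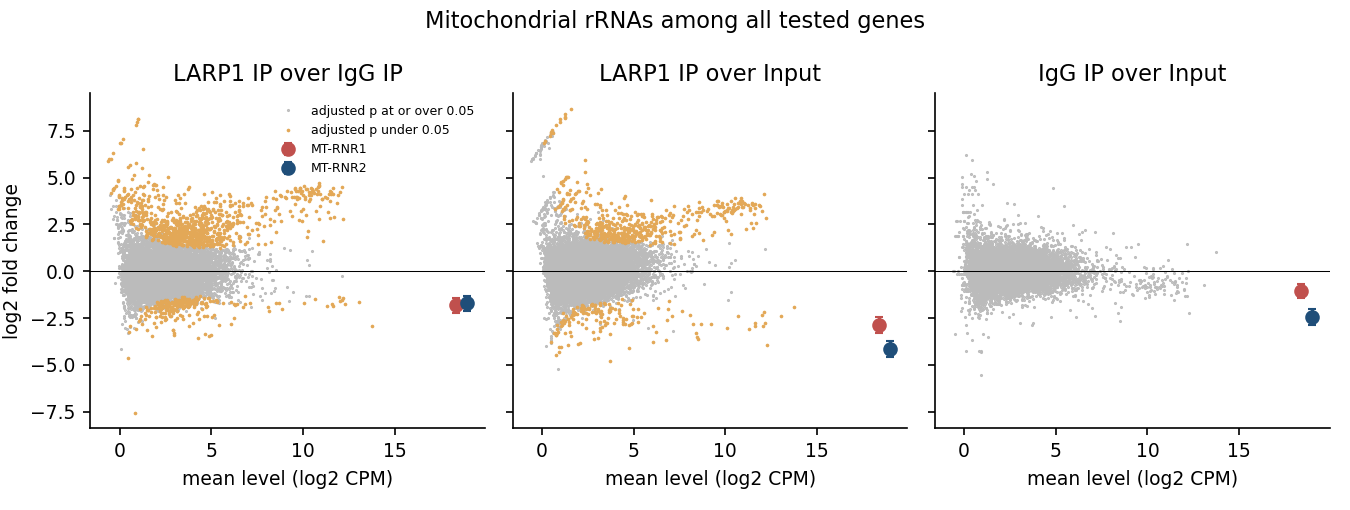
Log2 fold change of every tested gene against its mean level (log2 CPM, TMM-scaled) in the 3 comparisons, with genes at an edgeR adjusted p under 0.05 in orange and the 2 rRNAs with their SE as large points. The rRNAs stand apart to the right as the most abundant genes and lie below 0 in all 3 panels, from -1.05 for MT-RNR1 in the IgG IP over Input to -4.16 for MT-RNR2 in the LARP1 IP over Input; with total counts MT-RNR1 in the IgG IP over Input lies at 0.46.

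The control serum was itself compared with Input, which shows how mitochondrial rRNA behaved in an immunoprecipitation with no specific antibody. Neither rRNA passed edgeR's test in the fit on group alone. With a term for replicate number added, MT-RNR2 passed (edgeR adjusted p = 0.0222) and MT-RNR1 did not. For MT-RNR2 the log2 fold change in the IgG IP over Input was -2.45 ± 0.41 (SE; adjusted p = 0.164 by edgeR). Its unadjusted p of 3.97e-05 was the smallest of all 10788 genes, and MT-RNR1 had -1.05 ± 0.40 (adjusted p = 0.734). No gene was called in either direction by edgeR (0% of tested genes, with 725 genes at an unadjusted p under 0.05), while DESeq2 called 0.185% higher and 0.158% lower. MT-RNR2 was one of the genes that DESeq2 called lower (-2.49, adjusted p = 6.67e-09) and MT-RNR1 was not (-1.09, adjusted p = 0.101). By edgeR too MT-RNR2 passed without LARP1 IP replicate 1 (-2.45, adjusted p = 5.75e-05), without LARP1 IP replicate 2 (-2.44, adjusted p = 1.59e-05) and without IgG IP replicate 2 (-2.61, adjusted p = 0.000748), so its place beyond the threshold depended on which libraries entered the fit.

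The direction for MT-RNR1 in this comparison turned with the scaling. Its share of the library was 1.37-fold higher in the IgG IP than in Input without overlap, but so was the share of 87.7% of tested genes, with a median of 2.86-fold. Total counts shifted the median log2 fold change over all genes to 1.51 (0.01 with TMM) and that of MT-RNR1 to 0.46 (adjusted p = 0.0239 by edgeR, with 53.8% of tested genes called higher). MT-RNR2 kept a lower value there, at -0.94 (adjusted p = 0.00992, with 0.0556% called lower). The share of MT-RNR2 was lower in the IgG IP without overlap, which held for 0.287% of tested genes. The 3 comparisons share libraries, so their fold changes are not independent of each other.

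**Figure D5:**
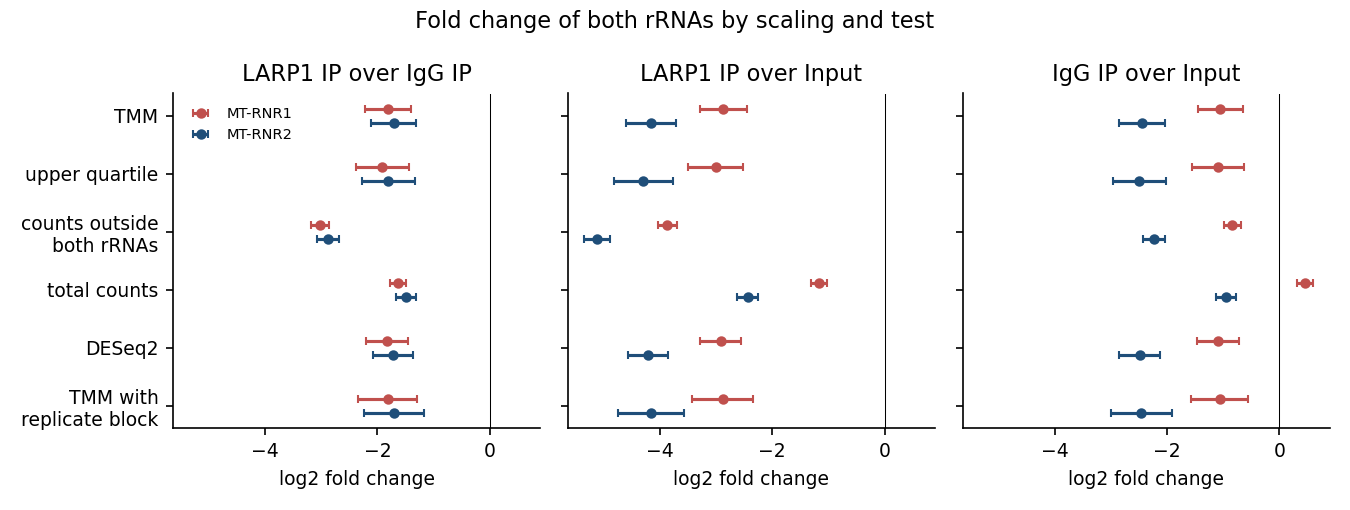
Log2 fold change (points) with SE (bars) of MT-RNR1 (red) and MT-RNR2 (blue) in the 3 comparisons under 6 choices of scaling or test. MT-RNR1 in the IgG IP over Input turns to 0.46 with total counts, while the other 5 fold changes lie below 0 under all 6 choices.

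Replicates of the rRNAs differed less than those of most genes: between 4.65% (MT-RNR2 in the LARP1 IP) and 32.5% (MT-RNR1 in the LARP1 IP) of tested genes had a smaller difference in the same group. On the TMM-scaled log2 CPM scale, the 2 libraries of a group differed by 0.35 for MT-RNR1 and 0.05 for MT-RNR2 in the LARP1 IP libraries, 0.25 for both in the IgG IP libraries, and 0.24 and 0.13 in Input. The median difference over all tested genes was 0.56 for LARP1 IP, 0.46 for IgG IP and 0.50 for Input libraries. Genes with fewer counts carry more counting noise in such differences. With counting noise set apart, edgeR's estimated spread between replicates (biological coefficient of variation) was 28.7% for MT-RNR1 and 28.2% for MT-RNR2. Its median over tested genes was 32.8%, so the gap was small on that measure. Each such estimate is drawn towards those of other genes by edgeR, so the small gap does not show that the spreads were alike. As a share of the library, the 16S RNA was the less even of the pair in the LARP1 IP, with a log2 difference of 0.54 between replicate 1 and replicate 2, against 0.15 for the 12S RNA.

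Among the 211 other genes averaging 100 CPM or more, likeness was measured as the root mean square difference of log2 CPM, centred per gene, over the 6 libraries. The 5 genes most like MT-RNR1 differed from it by 0.14 to 0.21 log2 units, against a median of 2.18 over the 211 genes. The closest was ENSG00000198888.2, with 0.154% and 0.107% of the counts in the LARP1 IP libraries, 0.399% and 0.350% in the IgG IP libraries, and 0.295% and 0.249% in Input. In the LARP1 IP it fell by 1.73 on the log2 scale against IgG (adjusted p = 0.0124 by edgeR) and fell by 2.79 against Input (adjusted p = 0.00116). Over all 5 genes the log2 fold changes were -1.85 to -1.45 against IgG and -3.10 to -2.75 against Input. These 5 genes were picked for their likeness to MT-RNR1, so their similar falls follow from the choice. Of all tested genes, 228 fell further than MT-RNR1 against IgG and 59 against Input. Falls of that size were thus not particular to the rRNAs.

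The 5 genes most like MT-RNR2 differed from it by 0.25 to 0.57, against a median of 2.59. The closest was ENSG00000256618.2, with 0.108% and 0.120% of the counts in the LARP1 IP libraries, 0.286% and 0.385% in the IgG IP libraries, and 0.530% and 0.574% in Input. It fell by 1.73 on the log2 scale in LARP1 IP libraries against IgG IP libraries (adjusted p = 0.0191 by edgeR) and fell by 3.94 against Input (adjusted p = 0.000935). MT-RNR1 and MT-RNR2 differed from each other by 0.65, while 22 of the other genes lay closer to MT-RNR1 than MT-RNR2 did and 7 lay closer to MT-RNR2 than MT-RNR1 did. Since these genes were picked for following the rRNAs over the same 6 libraries, their fold changes and p-values describe the choice and are no separate evidence. No symbol is given for them by the files or the gene table. Whether any of them is a nuclear copy of MT-RNR2 sequence, which may share reads with MT-RNR2, was therefore not tested. The likeness of ENSG00000256618.2 to MT-RNR2 thus cannot be told apart from shared reads. Its count was between 0.838% (LARP1 IP replicate 1) and 1.361% (LARP1 IP replicate 2) of the MT-RNR2 count in the same library.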

How the data were processed

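The labels' protocols state that TRIzol-purified RNA went into an Illumina stranded mRNA library kit and that the poly(A) step was skipped. The submitters' processing notes name Subread 1.20.6 with featureCounts, TopHat2 2.1.1, Bowtie2 and CASAVA 1.8, and the build GRCh38. For the annotation release, the strand setting and reads with several matches, the choice is not given in the sources used here. The authors deposited raw counts of reads for each gene in a file for each library, neither normalized nor pooled.

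Shares are percent of all gene counts of a library. Fold changes come from edgeR 4.0.16 in R 4.3.3: genes kept by filterByExpr (minimum count 10), TMM scaling, 1 quasi-likelihood fit of all 6 libraries on group alone (3 residual degrees of freedom), and Benjamini-Hochberg adjustment over all 10788 tested genes with a threshold of 0.05. SE is the log2 fold change over the square root of F. The fit was also run on simulated data made with the scaling factors of the real fit, so that run cannot test the scaling. No result given here rests on it. DESeq2 1.42.0 was an alternative, as were other scalings, filters and samples in the fit.

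The members and lists were chosen with earlier results of these data known. Named genes are the 2 rRNAs and the genes most like each in log2 CPM pattern. As the IDs have no symbols, 1 such ID per rRNA is printed in place of the planned 2, and of the planned genes next in rank only the share of the gene at rank 3 is given. No mitochondrial sequence is printed, since no genome was used here.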

Additional observations from a re-analysis of the deposited data

How the results depend on the processing

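Over 20 alternatives per fold change, both rRNAs stayed lower in the LARP1 IP than in either control. The 2 falls against the IgG IP missed the threshold in the edgeR fit of 4 libraries (-1.82 for MT-RNR1 and -1.71 for MT-RNR2). For the IgG IP over Input, MT-RNR1 turned to 0.46 with total counts. MT-RNR2 in that comparison passed with total counts (-0.94), counts outside the rRNAs (-2.24), no low-count filter (-2.30), DESeq2 (-2.49) and 4 libraries (-2.47), and by edgeR without LARP1 IP replicate 1, LARP1 IP replicate 2 or IgG IP replicate 2. It also passed with DESeq2 without each library, chosen after seeing the data (-2.47 and -2.46 without LARP1 IP replicate 1 and 2, -2.38 and -2.61 without IgG IP replicate 1 and 2, -2.40 and -2.57 without Input replicate 1 and 2). Leaving out each library in turn gave edgeR log2 fold changes of -1.99 to -1.65 for MT-RNR1 and -1.83 to -1.56 for MT-RNR2 in the LARP1 IP over the IgG IP, -3.04 to -2.70 and -4.22 to -4.07 in the LARP1 IP over Input, and -1.21 to -0.93 and -2.61 to -2.33 in the IgG IP over Input. The edgeR calls in the LARP1 IP were lost without Input replicate 1 or without Input replicate 2, and held without each of the other 4 libraries. Taking only the tested genes as the denominator moved each share by less than the SD between replicates.

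Replicate numbers are common to the groups, and no label ties a number to a batch. Over all tested genes, the deviations from the group mean of libraries with the same number correlated at 0.519 (LARP1 IP and IgG IP), 0.134 (LARP1 IP and Input) and 0.271 (IgG IP and Input). With the replicate block MT-RNR2 in the IgG IP over Input passed (-2.45, edgeR adjusted p = 0.0222), 1 of the 15 alternatives in which it did, and no other call on the rRNAs changed.

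Counts of lower genes ranged from 56 (DESeq2 without IgG IP replicate 1) to 3992 (counts outside the rRNAs) against the IgG IP, where the fit reported gave 247, and from 0 (edgeR without an Input library) to 1122 against Input, where it gave 164. For the IgG IP over Input, total counts called 5808 genes higher and 6 lower, and the replicate block called 39 and 35. Apart from the alternatives' own construction, the cause was not tested. Input had the fewest counts outside the rRNAs, at most 778680.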
